A study of Mus musculus with 8 samples.

Results

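The regions described here were those that carried a called peak of both H3K9me2 and H3K9me3, histone H3 dimethylated or trimethylated at lysine 9, and the question was which of them leaned to the trimethyl or to the dimethyl mark in wild-type mouse embryonic fibroblasts (MEFs). The cells came from HAT1+/+ embryos at embryonic day 13.5 (label HAT1 WT, strain background C57bl6) and were immortalized with SV40 T antigen. The protocol gives 2 WT embryos, and the titles number the libraries of each mark 1 and 2, so 4 of the 8 libraries of the series. A number is read here as 1 cell line in both marks, which no label states outright. The other 4 libraries came from 2 HAT1-/- lines (KO), immortalized in the same way and of the same background, and served for comparison. HAT1 acetylates newly made histone H4. Human Dbt myoblasts had been mixed into all 8 chromatin samples as a spike-in, and no sample received a drug.

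A region in the H3K9me2 table was paired with the H3K9me3 region that shared the most bases with it, at least 1 bp, each region being used once. This gave 786 pairs, which took up 39.6% of the 1983 H3K9me2 regions and 5.42% of the 14515 H3K9me3 regions. The median overlap was 292 bp. The median width was 337 bp for the H3K9me2 region and 404 bp for the H3K9me3 region of a pair, and the H3K9me3 region was the wider in 564 pairs. Of the 786 pairs, 366 overlapped a gene and 420 lay between genes, 43 lay on unplaced scaffolds and 2 on the mitochondrial genome. No region overlapped any of 10 fibroblast marker genes, so the regions did not bear on the labelled cell type.

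As background, both marks belong to heterochromatin. H3K9me2 is laid down mainly by the G9a and GLP methyltransferases over broad silent domains, many of them at the nuclear lamina. H3K9me3 is laid down by SUV39H1 and SUV39H2 at the satellite repeats beside centromeres, where HP1 binds it, and by SETDB1 with TRIM28 at retroelements and at clusters of KRAB zinc-finger genes. The dimethyl form is also the substrate from which the trimethyl form is made, so both can be found at one place.

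The stretches shared by both regions of a pair are shown for 6 pairs, from GRCm38.p6 (the assembly of mm10), plus strand, with CpG dinucleotides in capitals. The first 2 had the largest lean to H3K9me3 among pairs with a mean of at least 20 counts whose libraries did not overlap between the marks, at the processed pseudogene Gm13238 (chr4:145837288-145837528) and at the zinc-finger gene Zfp992 (300 bp, chr4:146469189-146469488). The next 2 had the largest lean to H3K9me2 under the same conditions, between genes on chromosome 2 (chr2:39494642-39494829) and in an intron of Copg2 (300 bp, chr6:30804666-30804965). The last 2 had the most counts, at Gm10800 (300 bp, chr2:98666664-98666963) and, for one 234-bp unit of the array it resembles, on chromosome 9 (chr9:3000047-3000280).
Gm13238: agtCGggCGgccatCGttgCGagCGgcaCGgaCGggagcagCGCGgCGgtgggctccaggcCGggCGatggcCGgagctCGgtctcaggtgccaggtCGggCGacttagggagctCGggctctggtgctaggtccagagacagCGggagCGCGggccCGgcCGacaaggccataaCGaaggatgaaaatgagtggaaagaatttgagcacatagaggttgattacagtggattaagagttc
Zfp992: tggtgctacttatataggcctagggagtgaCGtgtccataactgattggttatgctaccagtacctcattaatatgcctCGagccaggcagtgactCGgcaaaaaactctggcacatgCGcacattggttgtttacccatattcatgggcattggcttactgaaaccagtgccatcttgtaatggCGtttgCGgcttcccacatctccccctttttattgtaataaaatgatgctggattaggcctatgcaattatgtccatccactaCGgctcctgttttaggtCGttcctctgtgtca
chromosome 2: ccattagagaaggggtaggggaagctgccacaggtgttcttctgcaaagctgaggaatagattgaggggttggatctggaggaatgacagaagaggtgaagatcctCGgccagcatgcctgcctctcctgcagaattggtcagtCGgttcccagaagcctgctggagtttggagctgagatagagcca
Copg2: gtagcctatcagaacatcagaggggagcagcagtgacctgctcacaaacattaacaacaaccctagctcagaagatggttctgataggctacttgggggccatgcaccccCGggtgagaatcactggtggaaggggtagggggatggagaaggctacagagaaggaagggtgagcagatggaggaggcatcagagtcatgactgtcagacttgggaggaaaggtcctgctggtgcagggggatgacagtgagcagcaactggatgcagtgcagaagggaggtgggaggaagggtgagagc
Gm10800: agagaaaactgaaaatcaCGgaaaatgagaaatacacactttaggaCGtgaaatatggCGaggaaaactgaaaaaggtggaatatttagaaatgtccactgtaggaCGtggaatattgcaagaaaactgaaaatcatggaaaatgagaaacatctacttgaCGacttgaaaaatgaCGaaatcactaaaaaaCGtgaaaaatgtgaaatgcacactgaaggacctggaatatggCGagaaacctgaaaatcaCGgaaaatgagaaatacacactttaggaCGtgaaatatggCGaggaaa
chromosome 9 unit: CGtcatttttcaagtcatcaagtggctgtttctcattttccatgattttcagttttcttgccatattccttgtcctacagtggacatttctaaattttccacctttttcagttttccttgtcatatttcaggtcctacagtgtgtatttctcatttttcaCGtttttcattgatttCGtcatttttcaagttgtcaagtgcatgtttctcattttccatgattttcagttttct
The Gm13238 stretch held 23 CpGs in 241 bp at 63.1% GC and the Zfp992 stretch 8 in 300 bp, whereas the chromosome 2 stretch held 2 in 188 bp and the Copg2 stretch 1 in 300 bp. That contrast did not hold for all named pairs, as the observed over expected CpG was 0.124 in the Tmem267 pair and 0.0940 in the Gm3054 pair, which also leaned to H3K9me3, against 0.229 in the chromosome 2 pair. The chromosome 9 region matched itself best at a shift of 234 bp, the repeat length of the mouse major satellite, and 50.8% of the 12-mers of the Gm10800 region occurred in the chromosome 9 units.

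The levels of both marks over the pairs were as follows. The H3K9me2 libraries of WT lines 1 and 2 held 8421762 and 6496881 reads and the H3K9me3 libraries 5810913 and 5696058. The pairs took up 4.61% and 6.48% of the H3K9me2 reads and 8.52% and 9.80% of the H3K9me3 reads. Both H3K9me3 libraries were therefore above both H3K9me2 libraries, with means of 9.16% ± 0.906 and 5.55% ± 1.32 (SD, n = 2 each), and the exact two-sided permutation p of 0.33 was the smallest that 2 libraries against 2 allow. As RPM, counts scaled to the library total, the median pair stood at 4.16 and 6.70 RPM in H3K9me2 and at 7.23 and 10.2 RPM in H3K9me3. The median counts behind these values were 35, 43.5, 42 and 58, and 3 counts, the limit that a count of 0 allows, corresponded to 0.356 to 0.527 RPM.

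**Figure D1:**
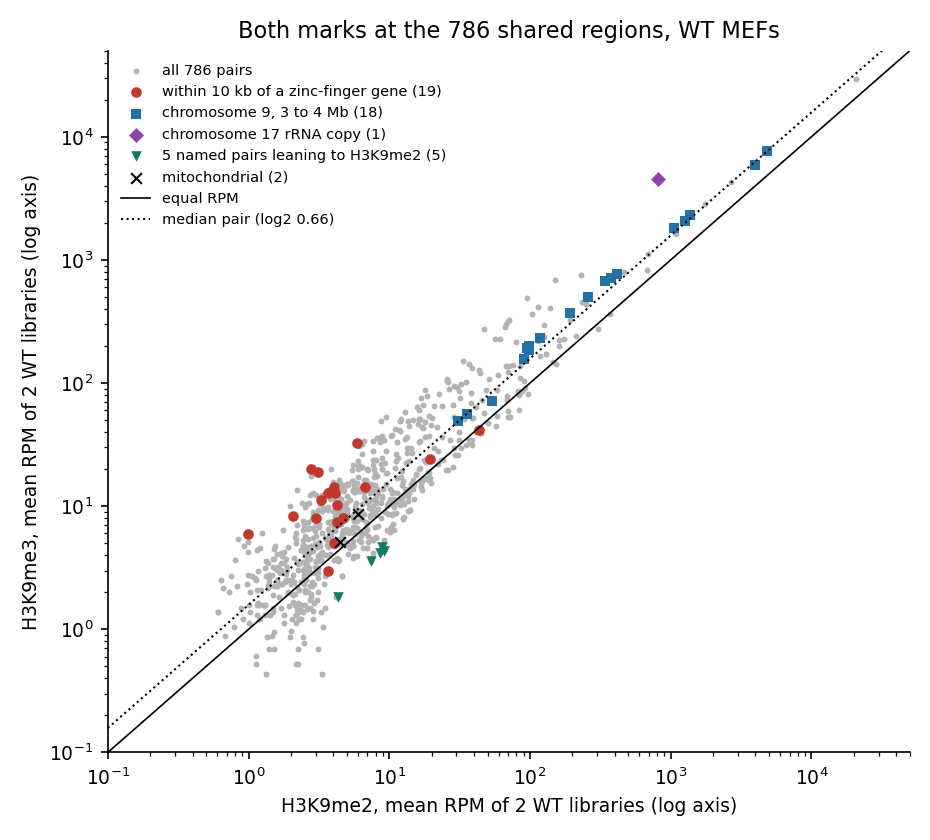
Each of the 786 pairs by its mean RPM over the 2 WT libraries of H3K9me2 (x axis, log) and of H3K9me3 (y axis, log), with the solid line at equal RPM and the dotted line at the median pair, 0.66 on the log2 scale. The chromosome 17 rRNA copy (diamond) and most of the pairs near zinc-finger genes (red) lie above the dotted line, the chromosome 9 array (blue squares) lies close to it, and the 5 named H3K9me2-leaning pairs (triangles) lie below equality.

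The levels of the marks followed each other. Across the pairs log2 RPM correlated between H3K9me2 and H3K9me3 with Pearson's r = 0.887 in WT line 1 and 0.921 in WT line 2. These are descriptions over 786 regions of the same cells, which share libraries and base composition. The lean of a pair, the log2 fold change of H3K9me3 over H3K9me2 per library total, had a median of 0.66, and its middle 80% ran from -0.50 to 1.85. When each WT library was left out in turn, the median difference with a pseudocount of 1 ran from 0.37 to 0.91. Per library total H3K9me3 was the higher in 589 pairs (74.9%) and H3K9me2 in 197. That split followed the scaling. With a pseudocount of 1 the median difference was 0.65 per library total, 0.09 with TMM factors, and -0.50 when each library was scaled to the counts in all regions of its own table, which gave 29.8% of pairs with H3K9me3 higher. The order of the pairs does not change with such a factor, so a lean is read below against the median pair as well as against 0.

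No pair passed the test. In edgeR's quasi-likelihood test on the counts, 0 of 786 pairs had a Benjamini-Hochberg FDR under 0.05 in either direction (percent called 0.0%), and the smallest FDR was 0.0520, shared by 37 pairs that leaned to H3K9me3. The smallest FDR of an H3K9me2-leaning pair was 0.175. At an unadjusted p under 0.05, 149 pairs (19%) leaned to H3K9me3 and 3 (0.382%) to H3K9me2, where 39.3 would be below it if no pair differed, and DESeq2 called 90 and 0 at an adjusted p under 0.05, with 335 pairs left without one. Without the H3K9me3 library of WT line 2 the unblocked test called 52 pairs. With the line number as a block, a pairing that the shared numbers leave unstated and that rests on the data of the WT libraries, edgeR called 240 pairs (30.5%) for H3K9me3 and 3 (0.382%) for H3K9me2. With TMM factors and the block the split was 125 (15.9%) to 40 (5.09%). With the block and region width as an offset it was 139 to 1. The libraries of the 2 marks did not overlap in 338 pairs with H3K9me3 above (43.0%) and in 72 with H3K9me2 above (9.16%). On simulated counts with 200 of 786 pairs changed, the unblocked test recovered 0.5% of 2-fold, 19.5% of 4-fold and 85.5% of 8-fold changes. False calls numbered 0, 2 and 8. The draws used a common dispersion of 0.30 and no difference between lines, so recovery in the real counts may differ.

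The 5 named pairs that leaned to H3K9me3 are those with the largest fold change among pairs with a mean of at least 20 counts whose libraries did not overlap. None of them passed without the block. All 5 passed with the line block, at edgeR FDRs of 0.00988 to 0.0101, beside 30.5% of all pairs. The rule had picked them for large, separated values in the same libraries, so these passes are no separate evidence. The first lay in an exon of Gm13238, a processed pseudogene in the chromosome 4 zinc-finger cluster. It had 20 and 19 counts in the H3K9me2 libraries and 135 and 92 in the H3K9me3 libraries, or 2.37 and 2.92 against 23.2 and 16.2 RPM (log2 fold change 2.89, SE 0.46, edgeR FDR 0.0520). Both H3K9me3 libraries stood well above both H3K9me2 libraries.

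The second lay at chr4:146469136-146469542 in Zfp992, a KRAB-type zinc-finger gene, and in the lincRNA Gm26573. Its levels were 2.85 and 3.08 RPM of H3K9me2 and 19.4 and 18.3 RPM of H3K9me3, with little spread within a mark (2.66, SE 0.40, edgeR FDR 0.0520). The third lay in an intron of Tmem267, a gene for a transmembrane protein, at chr13:119598889-119599242. It was the best covered of the 5, with 338 and 354 counts of H3K9me2 and 1540 and 1620 of H3K9me3 (40.1 and 54.5 against 265.0 and 284.4 RPM, log2 fold change 2.54, SE 0.26). Its 2 regions differed in width, 354 and 1384 bp, and per kb of region its value was 0.57 and its blocked call was lost (edgeR FDR 0.116).

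The fourth, at chr5:137152131-137152548, lay 1.09 kb from the lincRNA Gm3054. It had 10.2 and 7.08 RPM of H3K9me2 and 72.6 and 25.3 RPM of H3K9me3, so the H3K9me3 libraries differed between the lines while both stayed above H3K9me2 (2.50, SE 0.61, edgeR FDR 0.110). Without the H3K9me3 library of line 1 its value was 1.54. The fifth lay in an exon of Mid1, the gene of a microtubule-associated ubiquitin ligase at the edge of the pseudoautosomal region, at chrX:170005271-170005913. It had 10.3 and 8.31 RPM of H3K9me2 against 60.7 and 44.1 RPM of H3K9me3 (2.49, SE 0.32, edgeR FDR 0.0520). The H3K9me3 region was the wider in all 5. Per kb Gm13238, with regions of 241 and 723 bp, came to 1.31, and the pairs at Zfp992, Gm3054 and Mid1 to 1.83, 1.52 and 1.84. These 4 stayed called with the block (edgeR FDRs of 0.0264 to 0.0489).

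**Figure D2:**
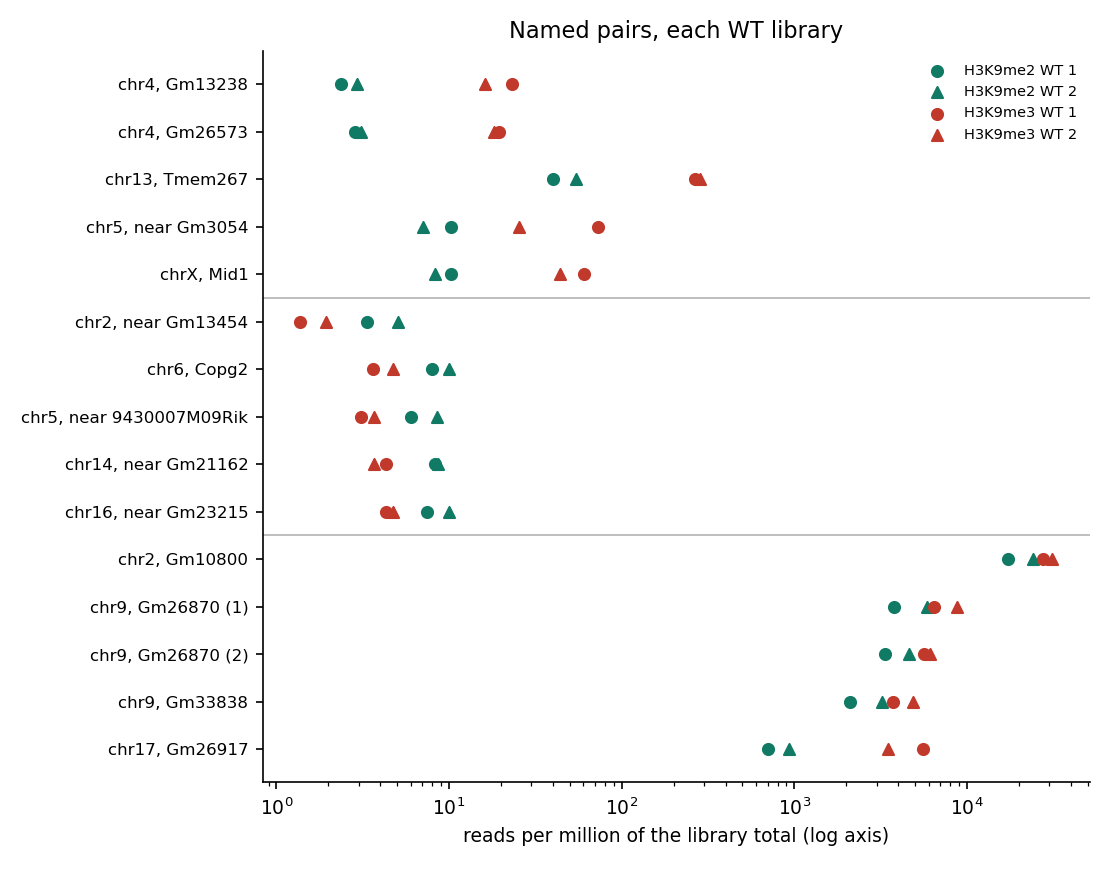
RPM (log axis) of each WT library at the 5 named pairs leaning to H3K9me3 (top), the 5 leaning to H3K9me2 (middle) and the 5 with the most counts (bottom), green for H3K9me2, red for H3K9me3, circles for WT line 1 and triangles for WT line 2. The marks are apart in the top block by more than in the middle block, and at Gm10800 the libraries run from 17280 to 31198 RPM with the marks side by side.

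Among the named pairs, the lean to H3K9me2 was smaller and rested on fewer counts. The first named pair lay between genes at chr2:39494429-39494829, 29.9 kb from Gm13454, with 28 and 33 counts of H3K9me2 and 8 and 11 of H3K9me3 (3.32 and 5.08 against 1.38 and 1.93 RPM). Its log2 fold change was -1.33 (SE 0.57, edgeR FDR 0.296), and it did not pass with the line block either (0.124). The second lay in an intron of Copg2, a gene for a subunit of the coatomer coat of transport vesicles, at chr6:30804519-30805279. It had 67 and 65 counts of H3K9me2 and 21 and 27 of H3K9me3, which gave -1.10 (SE 0.48, edgeR FDR 0.298), and it was called with the line block (FDR 0.0386). The H3K9me2 libraries were above the H3K9me3 libraries in each of the 5 pairs, since the rule asked for it.

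The other 3 were intergenic. At chr5:135267261-135267851, 2.13 kb from 9430007M09Rik, the counts were 51 and 55 against 18 and 21 (-1.09). At chr14:43525517-43526075, 8.31 kb from the pseudogene Gm21162, they were 70 and 56 against 25 and 21 (-1.08, edgeR FDR 0.0467 with the line block). At chr16:3267963-3268504, 18.3 kb from Gm23215, they were 63 and 65 against 25 and 27 (-0.95). Region width moved with the lean here too. The H3K9me2 region was the wider in all 5, and per kb the chromosome 5 and chromosome 16 pairs came to 0.07 each, the Copg2 pair to -0.37, the chromosome 14 pair to -0.89 and the chromosome 2 pair to -1.10. With the block and width as an offset neither Copg2 nor the chromosome 14 pair was called (edgeR FDRs of 0.458 and 0.111). Against the median pair, with TMM factors and the line block, all 5 were called (edgeR FDRs of 0.00151 to 0.0411), beside 5.09% of all pairs. They had been picked as the most negative separated pairs in the same libraries, so these calls are no separate evidence. With region width added to that fit, 14 of its 40 H3K9me2 calls stayed. The third H3K9me2 call of the blocked fit lay in an intron of Rps6kc1 at chr1:190902693-190903026 and was singled out after its values were seen. Its log2 fold change of -3.54, the lowest of all pairs, rested on 1 library, with 51 and 2 counts of H3K9me2 and 3 and 0 of H3K9me3.

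Of the 5 pairs with the most counts, 4 were satellite-like and had leans of 0.51 to 0.69. Gm10800 on chromosome 2 (chr2:98666232-98667396), a predicted gene made of satellite-like sequence, had 145531 and 156470 counts of H3K9me2 and 160475 and 177703 of H3K9me3, or 17280 and 24084 against 27616 and 31198 RPM. Both H3K9me3 libraries were above both H3K9me2 libraries, at a log2 fold change of 0.51 (SE 0.76), which was below the median pair and turned to -0.02 with TMM factors. With the line block its edgeR FDR was 0.0224. Without the H3K9me2 library of WT line 1 it came to 0.29, and without that of line 2 to 0.77. The pairs at chr9:3000047-3001565 and chr9:3024005-3024690, both in the lincRNA Gm26870, came to 0.66 and 0.57, and the pair in an intron of Gm33838 at chr9:35305096-35305682 to 0.69. Without the H3K9me2 library of line 1 these 3 came to 0.35 to 0.41, without that of line 2 to 0.82 to 1.02, and without the H3K9me3 library of line 2 the first came to 0.42.

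These pairs belonged to one sequence family. Counting every pair that shared at least 25% of its 20-mers with the regions at 3 to 4 Mb of chromosome 9, 26 pairs were array-like, 18 of them there and 8 elsewhere, among them Gm10800, Gm10801, Gm33838, 2210408I21Rik and 3 pairs at Gm21738. Reads from one copy can align to another, so their values are not independent of each other. They held 73.2% and 76.9% of all counts in pairs in the H3K9me2 libraries and 65.8% and 72.4% in the H3K9me3 libraries. Their leans lay in a narrow band, from 0.42 to 1.03 with a median of 0.76, against quartiles of -0.01 and 1.28 over all pairs. With the line block 22 of the 26 were called for H3K9me3, beside 30.5% of all pairs. With TMM factors as well 0 were called in either direction, beside 15.9% and 5.09%. The H3K9me3 libraries were above both H3K9me2 libraries in 13 of the 26, near the 43.0% over all pairs.

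The exception among the 5 pairs with the most counts was the ribosomal RNA copy on chromosome 17 (chr17:39843116-39847270), which overlaps the annotated rRNA CT010467.1 and the lincRNAs Gm26917, Gm42418 and AY036118. It had 5959 and 6031 counts of H3K9me2 and 32467 and 19804 of H3K9me3, or 708 and 928 against 5587 and 3477 RPM. Each H3K9me3 library exceeded both H3K9me2 libraries, a lean of 2.47 (SE 0.47, edgeR FDR 0.0623, 0.00988 with the line block), and per kb of region it was 2.03. Ribosomal RNA genes stand in many copies that the assembly mostly lacks, and which copies the reads came from was not tested. The one other pair that shared a large part of its 20-mers with it (50.8%), at chr6:3201297-3201646 near Gm2651, had 103 and 111 counts against 346 and 225 (1.76).

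Among the 41 pairs with a mean of at least 1000 counts, H3K9me3 was the higher per library total in 39. Of the 41, 18 were array-like and 23 were not. The 23 had leans from -0.14 to 2.47 with a median of 1.26, and 15 were called for H3K9me3 with the line block, beside 30.5% of all pairs. Blocked calls for H3K9me3 rose with coverage, from 2.03% of pairs in the lowest quartile of mean count to 60.9% in the highest, and its part in this count and in that of the array-like pairs was not tested. At the top beside the rRNA copy stood a pair 2.73 kb from Gm11668 at chr11:109011538-109012164, with 80.7 and 108.8 RPM of H3K9me2 against 574.1 and 404.0 RPM of H3K9me3 (2.37). Next came an intron of Cdk8, the kinase of the Mediator complex (2.20), and an intron shared by Cmss1 and Filip1l (2.19). At the bottom stood an intron of Ybx3, a cold-shock domain protein gene, with 270.4 and 337.4 against 256.2 and 295.3 RPM (-0.14), and an intron of Fam227b (-0.02). These were picked from the 23 by their values.

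The zinc-finger genes had the highest median lean to H3K9me3 of the gene lists. Clusters of these genes, which encode DNA-binding repressors of retroelements, are textbook targets of H3K9me3. Of the 786 pairs, 19 lay in or within 10 kb of a gene of the list, 12 of them on chromosome 4 and 5 on chromosome 13. Their median lean was 1.68 against 0.66 over all pairs, and a common scaling factor leaves the distance of 1.02 between the medians as it is. With a pseudocount of 1 that distance was 1.01, and it was 0.62 without the H3K9me2 library of WT line 1, up to 1.40 when another library was left out, and 0.55 per kb. H3K9me3 was the higher in 17 of the 19, and with the line block edgeR called 13 for H3K9me3 and 0 for H3K9me2, beside 30.5% and 0.382% of all pairs. None was called without the block. Their H3K9me3 regions were a median 1.58 times as wide as their H3K9me2 regions, and per kb the median lean was 0.97.

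On chromosome 4 the pairs beside Gm13238 and Zfp992 were joined by Zfp986, with 8 and 5 counts of H3K9me2 and 38 and 28 of H3K9me3 (2.70). A pair near Zfp988 had 58 and 30 counts against 209 and 164 (2.49, edgeR FDR 0.0520). Zfp984 came to 2.09, Zfp990 to 1.82 and Zfp978 to 1.68. The pairs near Zfp991 came to 0.32 and 0.82, and those near Zfp985 to 0.77 and 1.81. None of these 12 pairs differed between the WT lines by more than 2 on the log2 scale in both marks.

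On chromosome 13 all 5 pairs lay at Zfp640, an annotated processed pseudogene, and their counts differed between the lines in both marks. One had 5 and 50 counts of H3K9me2 and 11 and 103 of H3K9me3, another 8 and 45 against 16 and 145. Within each line H3K9me3 was the higher in 4 of the 5, whereas across lines the marks overlapped. The fifth was the lowest of the list, at chr13:66689288-66689590, with 9 and 39 counts against 0 and 32 (-0.32, SE 1.80). The 2 zinc-finger pairs outside these clusters had values below the median pair. The pair at Zfp821 on chromosome 8 had 327 and 306 counts against 222 and 251 (-0.06) and the pair at Zfp949 on chromosome 9 had 158 and 130 against 120 and 155 (0.30).

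The other gene lists stood closer to the median pair. The 28 pairs near vomeronasal receptor genes, which encode pheromone receptors, had a median of 0.87. With the line block 9 of them (32.1%) were called for H3K9me3 and 0 for H3K9me2, near the 30.5% and 0.382% of all pairs. The highest, near Vmn2r122 on the scaffold JH584292.1, had 35 and 21 counts against 104 and 126 (2.43), and the lowest was the Zfp640 pair that lies near both lists. The 8 pairs near olfactory receptor genes had a median of 0.94 per library total, above that of all pairs, and of 0.20 per kb, below the 0.46 of all pairs. With the block 2 of the 8 were called, near the 30.5% of all pairs. They ran from -1.98 near Olfr30 to 1.96 near Olfr1081-ps1, both with a mean under 20 counts. Of the 2 better covered, Olfr915 came to 1.73 and Olfr855 to 1.66. Among the 2 pairs of the Speer, Skint and Pramel families, the one in an intron of Speer4cos came to -0.30, which turned to 0.06 per kb. When each WT library was left out in turn, it ran from -0.66 to 0.17. Of the 2 pairs near rRNA and snRNA list genes, Gm20388 came to 1.14 and Rn7s6, with 290 and 229 counts against 171 and 189, to -0.15. This symbol list did not match the rRNA copy on chromosome 17, which leaned to H3K9me3 at 2.47. The lists of defensins, protocadherins, histone genes and imprinted genes had 0 pairs. Each list matched gene symbols only (Defa and Defb for defensins), so members under other symbols were not counted. The 271 pairs near predicted (Gm) genes had a median of 0.79, and the 733 near none of the lists other than Gm genes had 0.63.

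The lean varied along the genome. Chromosome medians ran from 0.11 on chromosome 6 (33 pairs) and 0.23 on chromosome 11 (33 pairs) to 1.12 on chromosome 4 (55 pairs), 1.11 on chromosome Y (9 pairs), 1.09 on chromosome 13 (58 pairs) and 1.07 on chromosome 17 (25 pairs). The values of one chromosome spread over more than these medians did. Among 1 Mb windows with at least 5 pairs, the highest median per library total was at 145 to 146 Mb of chromosome 4, with 1.93 over 5 pairs, which holds Gm13238, Zfp986 and Zfp990. Next were 119 to 120 Mb of chromosome 13 around Tmem267 (1.88, 6 pairs), 146 to 147 Mb of chromosome 4 (1.55, 6 pairs) and 66 to 67 Mb of chromosome 13 (1.5, 13 pairs). The lowest was 3 to 4 Mb of chromosome 11, around Sfi1, Drg1 and Pisd-ps1, with 0.05 over 15 pairs. The window with the most pairs, 20 to 21 Mb of chromosome 8, had a median of 0.31 over 46 pairs. The order of the windows depended on width. Per kb the highest median was 1.46 at 55 to 56 Mb of chromosome 8 (5 pairs, 1.30 per library total). The chromosome 4 windows at 145 and 146 Mb came to 1.31 and 0.65. Lowest were the chromosome 11 window and 19 to 20 Mb of chromosome 8, both at 0.048. Neighbouring regions of a window are often copies of one another and are not independent.

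**Figure D3:**
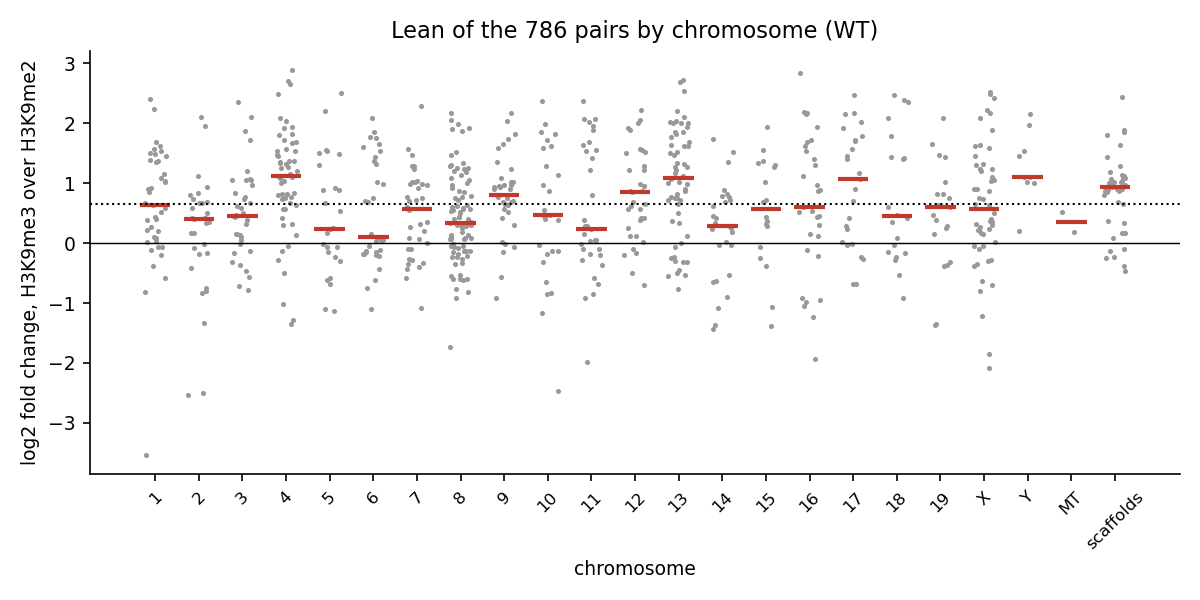
Lean of each of the 786 pairs (points, log2 fold change of H3K9me3 over H3K9me2 per library total) by chromosome, with the chromosome median as a red bar, the median of all pairs as a dotted line and equality as a solid line. The bars of chromosomes 4, 13, 17 and Y lie above the dotted line and those of chromosomes 5, 6, 11 and 14 lie furthest below it, within a spread of points that is wider than the distances between bars.

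The mitochondrial genome, which carries no histones, held 2 pairs. In mt-Rnr1 the counts were 64 and 27 of H3K9me2 and 62 and 35 of H3K9me3 (0.51), and in mt-Rnr2 they were 47 and 20 against 36 and 21 (0.19). Both were higher in line 1 than in line 2 and both lay below the median pair, with few counts.

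The 2 WT lines differed from each other at the same places in both marks. A pair's difference between line 1 and line 2 in H3K9me2 correlated with that in H3K9me3 with Pearson's r = 0.712 (Spearman's rho 0.539), and with r = 0.693 on the autosomes. For the KO lines the same value was -0.036. In 58 pairs, chosen after the values were seen, the WT lines differed by more than 2 on the log2 scale in both marks, 47 with line 2 higher and 11 with line 1 higher, and the sign was the same in both marks in all 58.

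They gathered in a few places. At 65 to 67 Mb of chromosome 13, which holds Zfp640, 19 of 23 pairs were among them, all higher in line 2. At 66 to 67 Mb the median difference of line 2 over line 1 was 2.83 in H3K9me2 and 3.08 in H3K9me3, against 0.32 and 0.20 over all pairs. The immunoglobulin heavy-chain variable genes at 115 to 116 Mb of chromosome 12 held 8 of 11, and the Vmn2r genes at 7 to 11 Mb of chromosome 7 held 9 of 14. A pair in Gm9245 on chromosome 12 shows the pattern, with 8 and 128 counts of H3K9me2 and 53 and 381 of H3K9me3. The reverse was seen at chr8:20946989-20947911 near AY761185, where line 1 had 148 and 285 counts and line 2 had 0 and 0. None of the 55 chromosome 4 pairs was among the 58.

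On chromosome Y, 3 of 9 pairs had counts in line 1 of both marks and 0 in line 2 of both marks. In line 1 the 3 had 21, 66 and 68 counts of H3K9me2 and 30, 133 and 102 of H3K9me3. Whether copy number, strain sequence or loss of chromosome Y differs between the lines was not tested. The lean of the 58 pairs was a median 0.98. Without the line block 0 of them had an unadjusted edgeR p under 0.05, beside 19% of all pairs for H3K9me3. They were chosen for a large spread within each mark, which by itself works against a low p there. With the line block 20 of the 58 were called for H3K9me3 and 0 for H3K9me2, near the 30.5% and 0.382% of all pairs.

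**Figure D4:**
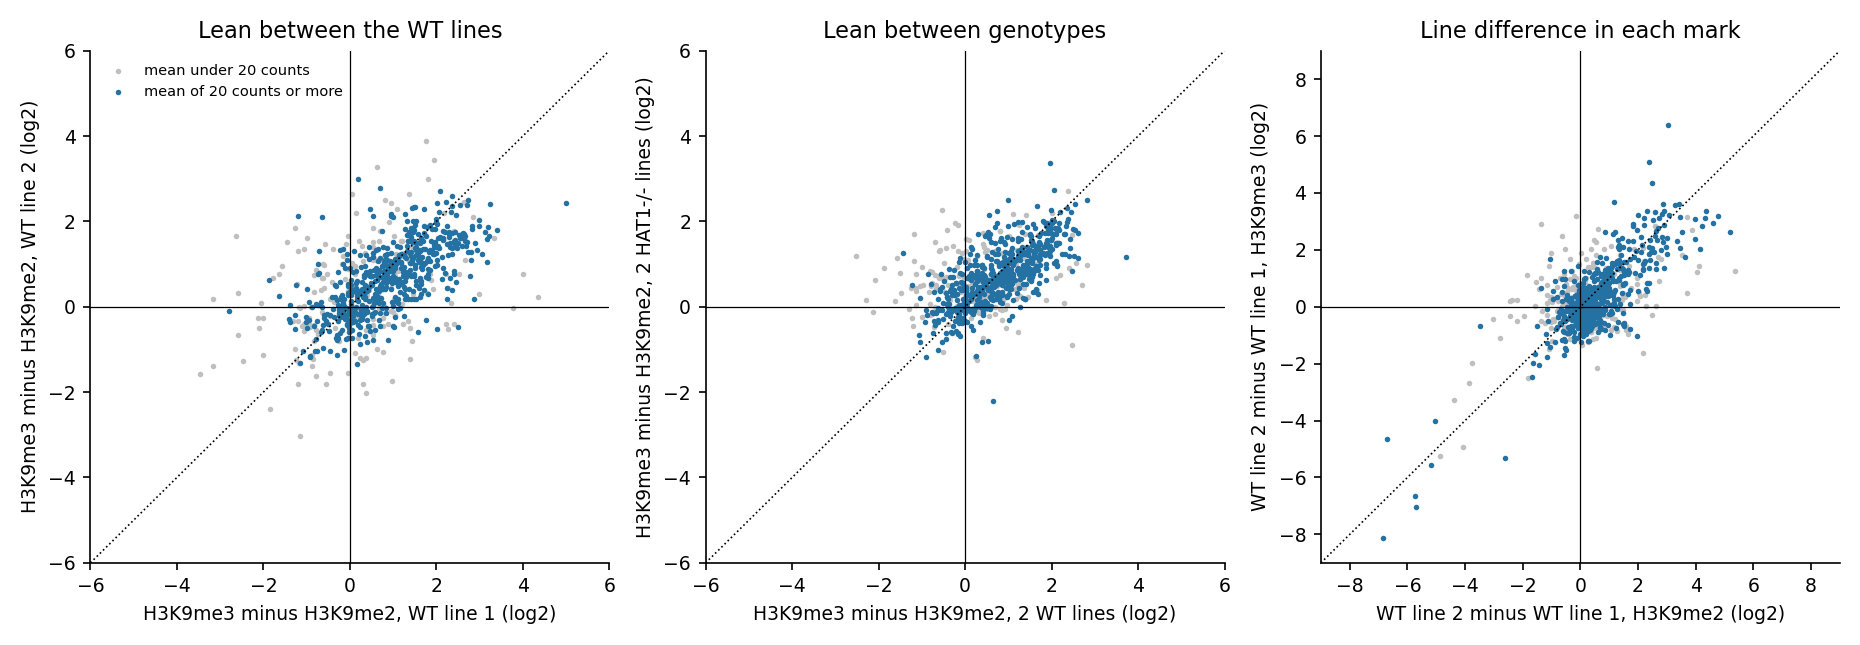
Left, the lean of each pair (log2 of H3K9me3 minus H3K9me2, pseudocount 1) in WT line 1 (x) and WT line 2 (y). Middle, the lean in the 2 WT lines (x) and the 2 HAT1-/- lines (y). Right, the difference of WT line 2 minus line 1 in H3K9me2 (x) and in H3K9me3 (y). Blue points have a mean of at least 20 counts and grey points fewer, the dotted line marks equal values, and the right panel shows the pairs that differ between the lines lying near it in both directions.

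The lean itself was moderately alike in the 2 lines. Its median was 0.71 in line 1 and 0.61 in line 2, it had the same sign in 606 of 786 pairs, and it correlated with Pearson's r = 0.555 (Spearman's rho 0.595), or 0.664 (rho 0.699) over the 591 pairs with a mean of at least 20 counts. The zinc-finger pairs had medians of 1.54 and 1.41 in the lines. These correlations run over regions, which are not independent replicates.

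The lean moved with the widths of the 2 regions, which were set by peak calling in data of the same series. In the 161 pairs whose H3K9me3 region was at least 1.5 times as wide as the H3K9me2 region the median lean was 1.30, in the 597 between it was 0.52, and in the 28 with the H3K9me2 region at least 1.5 times as wide it was -0.30. Per kb of region these medians were 0.42, 0.46 and 0.56. Whether width set the lean or the signal set the width was not tested. Spearman's rho between lean and width ratio was 0.49, and 0.015 once the lean was taken per kb. Pairs with 4 or more H3K9me3 peak summits had a median of 1.03 (0.78 per kb), and pairs with 1 summit in each region came to 0.32.

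Sequence content was also compared with the lean. Pairs whose 31-mers had a median of 1 copy in the assembly had a median lean of 0.41 (393 pairs), those with 2 to 9 copies 0.72 (226 pairs) and those with 10 or more 0.93 (122 pairs). By observed over expected CpG the quartile medians were 0.34, 0.60, 0.54 and 0.94, so the highest quartile stood apart while the middle ones were not in order. Spearman's rho with the lean was 0.21 for CpG, 0.19 for copies and 0.11 for GC content over the pairs with sequence. With the lean per kb it was 0.20 for CpG and for copies and 0.035 for GC content. Mean count moved with the lean as well, with quartile medians of 0.30, 0.68, 0.72 and 0.93, and its part in the other relations was not tested. Pairs over exons had a median of 0.84 (112 pairs), those over introns 0.53 (254 pairs) and those between genes 0.67 (420 pairs).

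**Figure D5:**
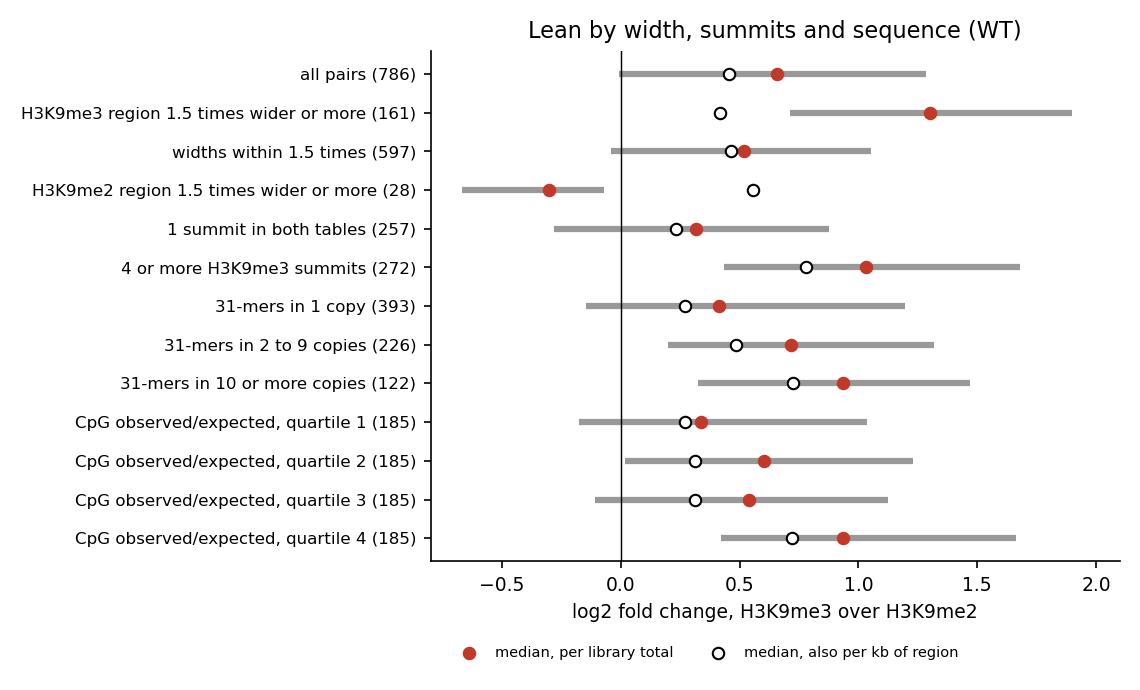
Median lean (red, log2 fold change per library total) with its quartiles (grey bar) for pairs split by region width, number of peak summits, copies of their 31-mers and CpG content, with the number of pairs in parentheses and the median per kb of region as open circles. The width classes run from -0.30 to 1.30 per library total and lie between 0.42 and 0.56 per kb, whereas the copy and CpG classes keep their highest class on top on both scales.

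The KO lines were compared at the same regions. In KO the unblocked edgeR test on its own 4 libraries called 263 pairs (33.5%) for H3K9me3 and 3 (0.382%) for H3K9me2, where the unblocked test in WT called 0, and the median lean was 0.66. With TMM factors the KO calls were 71 (9.03%) and 70 (8.91%), of which 62 and 14 were among the 125 and 40 WT calls with TMM factors and the block, 49.6% and 35% of the WT lists and 87.3% and 20.0% of the KO lists. Per library total, the 240 blocked WT calls and the 263 KO calls for H3K9me3 shared 188 pairs, 78.3% and 71.5% of each list, while the 3 H3K9me2 calls of each shared 0. The lean correlated between genotypes with Pearson's r = 0.550 (rho 0.588), and r = 0.706 over the 591 better covered pairs. The test of the difference, the mark by genotype interaction in edgeR, called 0 of 786 pairs (0.0%), with 17 at an unadjusted p under 0.05.

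Member by member, Gm13238 was also called for H3K9me3 in KO (2.51), as were the rRNA copy on chromosome 17 (2.23), Tmem267 (1.77), the Gm3054 pair (1.64), Zfp992 and Mid1. Of the 5 named H3K9me2-leaning pairs, the one near Gm23215 was called for H3K9me2 in KO (-1.16, edgeR FDR 0.00270). Copg2 (-0.63) and the pair near 9430007M09Rik (-0.89) had negative values in KO and were not called (edgeR FDRs of 0.0946 and 0.0962), and the pairs near Gm13454 and Gm21162 had 0.65 and 0.25. The zinc-finger pairs had a KO median of 1.11 and the array-like pairs 0.63. Mid1 and Zfp992 were at 0.80 and 1.16 in KO (edgeR FDRs of 0.00606 and 0.0141) against 2.49 and 2.66 in WT, with unadjusted interaction p of 0.00422 and 0.0101, neither of which passed the adjustment over all pairs (edgeR FDR 0.989). Among the 591 better covered pairs, 29 had one sign in both WT lines and the other in both KO lines, 23 of them toward H3K9me2 in WT.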

How the data were processed

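Per the study's methods and the submitters' processing notes, the authors aligned paired-end reads to mm10 with BWA 0.7.12, called peaks with MACS2 2.1.0 and named DiffBind. Duplicate and mapping-quality filters are not given in the sources used here, and no input library was used. The counts the authors deposited are whole reads per region and library. For RPM the authors had added 1 to each count before dividing by a library total, so the total could be recovered. The sources do not say whether it includes human spike-in reads. A fold enrichment deposited beside these, a ratio built from RPM and region width, was left unused. The authors' columns comparing KO with WT (log2 fold change, p-value, q-value) were not used. Apart from the fold enrichment, the number of per-sample columns left out was 0.

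Repeat rows were removed (62 of 2045 for H3K9me2 and 314 of 14829 for H3K9me3), and regions were paired with bedtools 2.31.1. Of the regions that overlapped, 10 of H3K9me2 and 2 of H3K9me3 were left without a partner. Counts of the 4 WT libraries were tested with edgeR 4.0.16 (glmQLFit and glmQLFTest, R 4.3.3) on the library totals, with no TMM factors, filter or block, two-sided, with Benjamini-Hochberg adjustment over all 786 pairs. DESeq2 1.42.0, TMM factors, region width as an offset and the line block were alternatives. Titles give the numbers WT1 and WT2 in both marks, and the protocol gives 2 embryos per genotype, but no label states that a number is one line. The deviations of the WT lines correlated between marks (r = 0.712, KO lines -0.036), and 3 chromosome Y pairs had 0 counts in line 2 of both marks. From these data the WT numbers were taken to pair the samples, and blocked values are printed where they change a call. The choice of the block was thus made on the same counts as the blocked tests. A blocked fit of 4 libraries also leaves few residual degrees of freedom. Replicates were read as separate lines, 2 per genotype. Genes came from GENCODE M21, sequences from RefSeq GRCm38.p6. Deposited starts count from 0 and 1 was added. The edgeR step was tested on simulated data.

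Named pairs were the 5 with the largest fold change in each direction among called pairs whose libraries did not overlap. Where fewer passed, they were taken from pairs with a mean of at least 20 counts whose libraries did not overlap. The 5 pairs with the most counts, the highest and lowest pair of each gene list (within 10 kb), and the 1 Mb windows of at least 5 pairs with extreme medians were added. The pairs, gene lists and tests were chosen with earlier results of these data known. Counting floors cover counting error only.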

Additional observations from a re-analysis of the deposited data

Results flagged for a closer look

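At 4 named pairs every WT line lay on one side of equality and every KO line on the other, in log2 RPM with a pseudocount of 1. The lowest Zfp640 pair on chromosome 13 came to -1.44 in WT and 1.25 in KO (interaction p 0.486). Its WT value averaged -2.79 in line 1 and -0.09 in line 2, and its edgeR value ran from -7.61 to 1.38 when each WT library was left out. The pair near Gm21162 on chromosome 14 came to -1.05 and 0.22 (0.0477), the pair near Gm13454 on chromosome 2 to -1.23 and 0.52 (0.0672), and the pair in Speer4cos to -0.25 and 0.87 (0.126). The difference was tested by the edgeR interaction, and none of the 4 passed after adjustment (FDR 0.989).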

How the results depend on the processing

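The count of called pairs depended on the processing. It was 0 on library totals without a block, and also with TMM factors. It was 49 with pairs under a mean of 20 counts left out, 46 on chromosomes 1 to 19, 74 at an FDR under 0.1, 90 with DESeq2, and 0 to 52 when each library was left out in turn, the 52 arising without WT H3K9me3 replicate 2, where the lone library was assumed to vary like the others. The replicate block gave 243 calls and, with region width as an offset, 140. Alternatives added after seeing the data gave 165 with TMM factors and the block, 71 with width as well, 191 on chromosomes 1 to 19 with the block, 248 with a mean of at least 20 counts and the block, and 0 for pairs of 1 summit with the block. The mark by genotype interaction stayed at 0 calls under all 11 alternatives, with 10 to 58 pairs at an unadjusted p under 0.05.

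The median difference with a pseudocount of 1 was 0.65 per library total. It was 0.091 with TMM factors, -0.093 with library sizes from the counts in pairs, -0.50 with library sizes from each table's own counts, 0.019 with DESeq2 size factors, 0.45 per kb, 0.77 with a mean of at least 20 counts, 0.33 for pairs of 1 summit and 0.37 to 0.91 when each library was left out in turn. Of 297 recomputed values for the 22 named pairs, 250 kept direction and side of the threshold, 30 newly passed it and 17 turned. Per kb, the H3K9me2-leaning pairs near 9430007M09Rik and Gm23215 came to 0.066 and 0.065 and Speer4cos to 0.064. Gm10800 came to -0.024 with TMM factors, -0.22 and -0.62 with pair and own counts, and -0.10 with DESeq2 factors. The chromosome 9 pairs turned with pair and own counts: the first in Gm26870 to -0.062 and -0.47, the second to -0.16 and -0.56 (-0.038 with DESeq2 factors), and Gm33838 to -0.035 and -0.44. The lowest Zfp640 pair ran from -7.61 to 1.38 and Speer4cos from -0.66 to 0.17 when each library was left out. The cause was not tested.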
